A study of Rattus norvegicus with 8 samples.

Results

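The genes described here are 40 members of the cell division programme, chosen by name: cyclins, replication and nucleotide supply genes, mitotic kinases, checkpoint and spindle genes, and the proliferation markers Mki67 and Top2a. Each gene was read from its brightest probe set, a group of short array probes for a transcript, among those to which the platform annotation gives that symbol alone. By this rule 38 of the 40 genes were measured, out of 14217 genes measured in the series. Rrm2 was not read because its probe sets carry several symbols, and Tpx2 was not found in the annotation. The linear model was applied to 34 of the 38. Mcm3, Tyms, Ccna2 and Bub1b lay below the brightness filter, the 40th percentile of all probe sets, and their values are given without a test.

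The arrays measured RNA of rat hippocampal slice cultures, explanted sections of the tissue that are maintained in vitro. Each array held a pool of 15 cultures from which CA1 or CA3, the main pyramidal cell fields, had been dissected, all with a time of 7 days. There were 3 CA1 control arrays, 3 CA3 control arrays, 1 CA1 lesion array and 1 CA3 lesion array. The labels give no strain, age, treatment or genotype, and do not say what the lesion was or when the 7 days began. Controls are numbered 1 to 3 in each field and both lesion arrays carry the number 1. What the numbers stand for is not stated, and neither is whether the pools came from separate animals, so every p-value measures the spread between these arrays, which may be technical. The question asked of these genes was whether the gain of glial transcripts in some of the arrays went with transcripts of dividing cells.

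A cell that enters division first makes D-type and E-type cyclins, which drive the kinases that release E2F transcription factors. E2F then switches on the replication genes, such as the MCM helicase, the clamp PCNA and the enzymes of nucleotide supply. Later, in G2 and mitosis, cyclins A and B act with CDK1. These cyclins, the Aurora and Polo kinases and many spindle proteins are made and then destroyed. Mature neurons have left the cycle. Microglia, oligodendrocyte precursors and astrocytes can enter it again after injury. Tissue in which more cells are dividing usually holds more of these transcripts together, because most of them are made in a limited window of the cycle.

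Every array had a 2% trimmed mean intensity of about 2501, and the median intensity ran from 561 to 815. The 3'/5' signal ratio of Gapdh, which rises as RNA degrades, was 3.71 to 5.0 in CA1 controls and 4.65 in the CA1 lesion array. It was 3.75 to 3.93 in the CA3 controls and 5.23 in the CA3 lesion array, above all CA3 controls, and its part in the results was not tested. The 11 neuron markers had a median brightness percentile of 95.2. Of 7 measured field genes drawn up after the data were seen, the CA1 genes Pou3f1, Fibcd1 and Mpped1 were lower in CA3 controls at limma adjusted p of 0.00305, 0.00404 and 0.00144, and Wfs1 was not past the threshold (adjusted p = 0.229). None of the CA3 genes Grik4, Bok and Coch passed it, and Coch had the opposite sign. Prox1, a marker of dentate granule cells, also lay above the filter. No cell type can be assigned to a transcript in such pools, in which fewer cells of a type and less RNA per cell cannot be told apart.

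Promoters of cell cycle genes carry sequence elements through which the programme is switched on in common. RefSeq promoters of the GRCr8 assembly, from 250 bases before to 50 after the gene start, were at hand for 31 of the 40 genes. The elements searched on both strands were the CCAAT box (CCAAT), the cell cycle homology region or CHR (TTTGAA or TTCGAA), and the E2F site (TTTCCCGC, TTTGGCGC, TTTGCCGC or TTTCGCGC). The CCAAT box was found in 23 of the 31 promoters (74.2%), against 37.7% of 27457 promoters. The CHR was found in 16 of 31 (51.6%), against 19.5%, and both elements together in 14 of 31 (45.2%), against 7.83%. An E2F site was found in 7 of 31 (22.6%), against 2.25%: those of Mcm2, Mcm3, Mcm5, Mcm6, Mcm7, Tyms and Cdk1. A match is a description of the letters and does not show that a factor binds there. The sequences below are the 150 bases before the start of 5 genes, 5' to 3' on the gene's strand, with matches in capitals. Mki67, Mcm2 and Mcm5 are shown because they had the smallest p-values between lesion and control, and Top2a and Cdk1 because they hold the same CCAAT and CHR pair as Mki67 and gave no such difference.
Mki67, chr1:199952594-199952743, minus strand: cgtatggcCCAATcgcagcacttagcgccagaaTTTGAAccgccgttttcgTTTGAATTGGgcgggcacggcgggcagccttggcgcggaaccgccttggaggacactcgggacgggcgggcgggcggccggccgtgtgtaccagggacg
Top2a, chr10:84473094-84473243, minus strand: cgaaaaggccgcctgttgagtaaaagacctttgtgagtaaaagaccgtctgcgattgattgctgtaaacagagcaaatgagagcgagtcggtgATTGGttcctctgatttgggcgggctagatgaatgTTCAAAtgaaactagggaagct
Cdk1, chr20:19265143-19265292, plus strand: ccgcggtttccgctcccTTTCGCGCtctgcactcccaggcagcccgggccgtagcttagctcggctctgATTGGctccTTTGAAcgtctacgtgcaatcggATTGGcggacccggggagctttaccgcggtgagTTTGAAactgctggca
Mcm2, chr4:122918095-122918244, minus strand: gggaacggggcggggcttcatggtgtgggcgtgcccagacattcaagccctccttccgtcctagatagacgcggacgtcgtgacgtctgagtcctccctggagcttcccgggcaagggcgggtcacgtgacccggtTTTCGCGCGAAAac
Mcm5, chr19:13488663-13488812, plus strand: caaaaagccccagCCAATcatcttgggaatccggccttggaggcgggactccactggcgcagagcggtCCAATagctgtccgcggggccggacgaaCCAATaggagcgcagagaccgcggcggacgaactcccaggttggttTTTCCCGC
In Mki67 a CHR and a CCAAT box on the opposite strand overlap, and in Mcm2 the E2F matches on the 2 strands overlap. Mcm5 held 3 CCAAT boxes and an E2F site in this window and no CHR.

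Mki67, which encodes the nuclear antigen Ki-67 of cycling cells, gave the largest lesion difference of the 34 tested genes. On the scale of log2(intensity + 16), used for every level here, Mki67 was 7.70, 6.89 and 7.22 in controls 1 to 3 of CA1 and 9.81 in the CA1 lesion array. It was 9.50, 9.14 and 8.54 in CA3 controls 1 to 3 and 10.01 in the CA3 lesion array. Both lesion arrays therefore lay above all 3 controls of their field, and the CA3 controls lay above all CA1 controls. The mean lesion difference over both fields was 1.74 ± 0.68 on the log2 scale, or 3.35-fold (SE; 95% interval 0.23 to 3.26; limma adjusted p = 0.771). It was 2.54 in CA1 and 0.95 in CA3. Here and below, the spread comes from the controls, and each lone lesion array is assumed to vary like them. By brightness, Mki67 lay at percentile 43.7, little above the filter. The filter used the mean over all arrays, which was 8.60 for Mki67 and includes its high lesion arrays. Its control means were 7.27 in CA1 and 9.06 in CA3. Mcm3, with a mean of 8.27 over all arrays, did not pass the filter. Mki67 may thus have been tested only through its high lesion arrays, and a filter on the controls alone was not run. The intensity of Mki67 was only 193, 102 and 133 in controls 1 to 3 of CA1.

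Top2a, the topoisomerase that untangles DNA for mitosis, did not follow Mki67. Its log2 level was 9.86, 9.90 and 10.26 in controls 1 to 3 of CA1 and 9.21 in the CA1 lesion array. In CA3 it was 10.07, 9.69 and 9.68 in the controls and 9.88 in the lesion array. The CA1 lesion array was thus below all its controls, and the CA3 lesion array was within its own. The mean lesion difference was -0.37 ± 0.35 (SE; 95% interval -1.15 to 0.42; limma adjusted p = 0.862). A dimmer probe set of Top2a, below the filter and untested, gave 1.37, and the mean of both gave 0.50, so the direction for Top2a depends on the probe set. Without the CA1 lesion array the value for Top2a was 0.07, which is the difference in CA3 alone. Over the 8 arrays Mki67 and Top2a correlated at -0.49, given as a description of arrays that share fields and numbers.

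**Figure D1:**
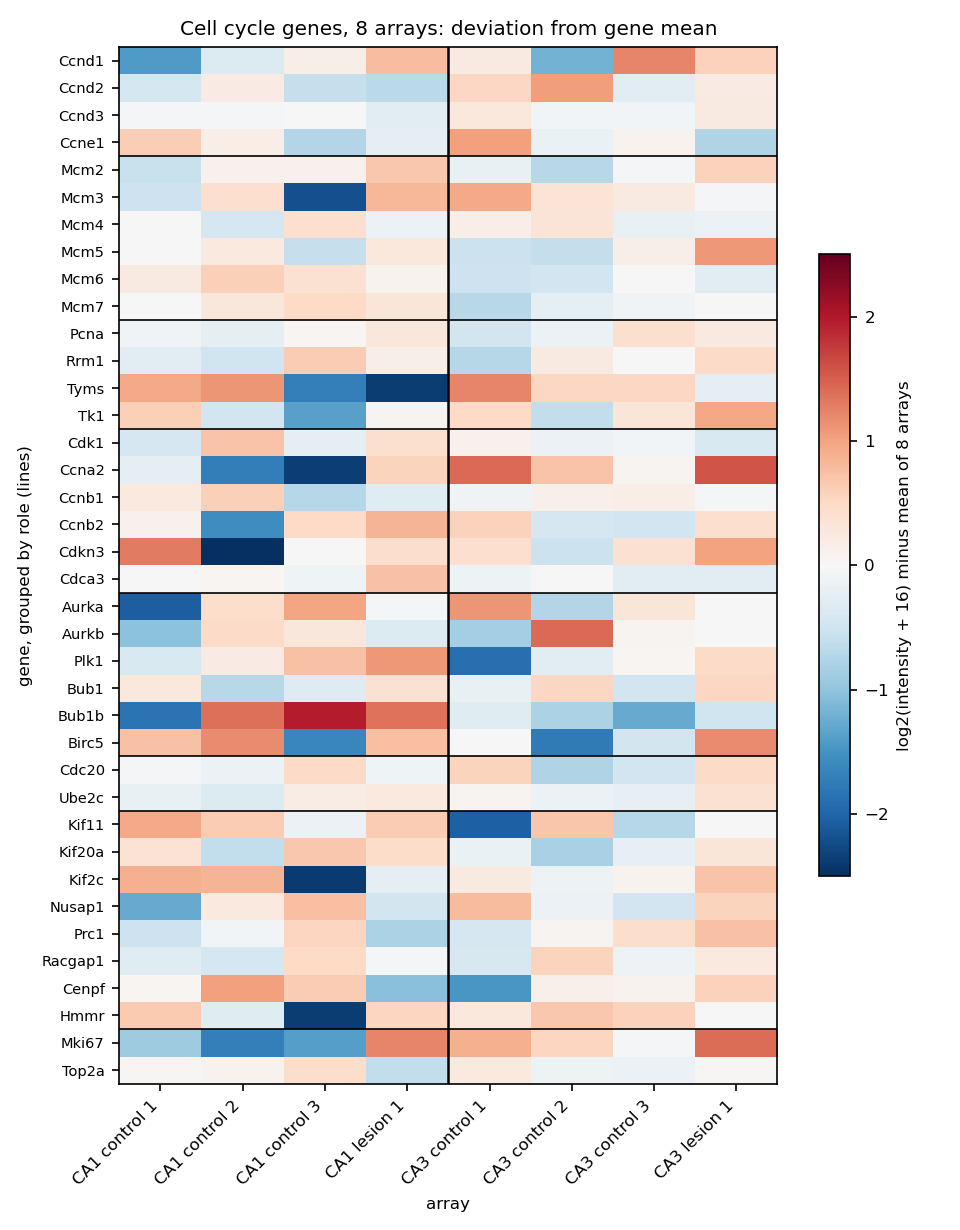
Heat map of 38 cell cycle genes (rows, grouped by role, with lines between roles) over the 8 arrays (columns); colour is log2(intensity + 16) minus the gene's mean over the arrays, from blue (lower) to red (higher). The rows do not share a pattern of columns: Mki67 is red in both lesion arrays and in CA3 controls 1 and 2, while Top2a, Cenpf and Prc1 are blue in the CA1 lesion array.

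Among the S-phase genes, the MCM subunits and the DNA synthesis genes, 7 of 10 measured had lesion estimates above 0, against 52.2% of all probe sets tested, and 0 of the 8 tested passed the threshold of adjusted p below 0.05 (0% of all). The 10 include Mcm3 and Tyms, which lay below the filter, while the share covers only probe sets past it. Mcm2 and Mcm5, subunits of the helicase that opens DNA ahead of the replication fork, had the smallest p-values after Mki67. Mcm2 was 9.71, 10.38 and 10.37 in controls 1 to 3 of CA1 and 10.95 in the CA1 lesion array. Mcm2 in CA3 was 10.08, 9.59 and 10.25 in the controls and 10.85 in the lesion array. Each lesion value of Mcm2 exceeded all controls of both fields. The lesion difference of Mcm2 was 0.84 ± 0.33 (SE; 95% interval 0.09 to 1.58; limma adjusted p = 0.771). Mcm5 was 10.04, 10.30 and 9.47 in the CA1 controls and 10.31 in the CA1 lesion array. Mcm5 in CA3 was 9.52, 9.45 and 10.20 in the controls and 11.13 in the lesion array. The CA1 lesion array was level with the highest CA1 control of Mcm5, and the CA3 lesion array stood well above its own. The lesion difference of Mcm5 was 0.89 ± 0.37 (SE; 95% interval 0.06 to 1.71; limma adjusted p = 0.771). The other MCM subunits did not show this: Mcm4, Mcm6 and Mcm7 had lesion differences of -0.20, -0.14 and 0.19. Mcm3, below the filter, had a lesion difference of 1.59 in CA1 and -0.53 in CA3.

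Pcna, the sliding clamp of DNA polymerase and also a repair factor, was the brightest member and varied little. Its log2 level was 14.35, 14.20 and 14.49 in the CA1 controls and 14.72 in the CA1 lesion array. In CA3 it was 13.98, 14.29 and 14.84 in the controls and 14.67 in the lesion array. Control 3 was the highest control in both fields, and in CA3 it exceeded the lesion array. The lesion difference of Pcna was 0.34 ± 0.22 (SE; 95% interval -0.14 to 0.82; limma adjusted p = 0.810), so a doubling, which is 1 on this scale, lies outside the interval. Rrm1 and Tk1, which supply deoxynucleotides, had lesion differences of 0.42 and 0.69. The other probe sets of Tk1 gave 0.30 and, below the filter and untested, -0.87. Tyms, the thymidylate synthase, was below the filter and lay at 5.13 in the CA1 lesion array against 5.79 to 8.61 in the CA1 controls, and at 7.29 against 8.01 to 8.73 in CA3.

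Of the 4 G1 cyclins, 1 had a lesion estimate above 0 and none passed the threshold. That was Ccnd1, cyclin D1, which links mitogen signals to cell cycle entry. Ccnd1 was 9.95, 11.01 and 11.50 in the CA1 controls and 12.14 in the CA1 lesion array. Ccnd1 in CA3 was 11.59, 10.18 and 12.58 in the controls and 11.93 in the lesion array. The CA3 controls of Ccnd1 spread wider than its lesion difference, and control 3 was the highest control in each field. The mean lesion difference of Ccnd1 was 0.90 ± 0.56 (SE; 95% interval -0.35 to 2.15; limma adjusted p = 0.810), and its other probe sets gave 0.61 and 0.98. In CA3 alone the estimate for Ccnd1 turned from 0.49 to -0.15 without CA3 control 2. Ccnd2, Ccnd3 and Ccne1 had lesion differences of -0.31, -0.03 and -0.66. Ccnd2, cyclin D2, was 9.74, 10.39 and 9.61 in the CA1 controls and 9.52 in the CA1 lesion array, and 10.71, 11.24 and 9.90 in the CA3 controls and 10.38 in the CA3 lesion array.

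**Figure D2:**
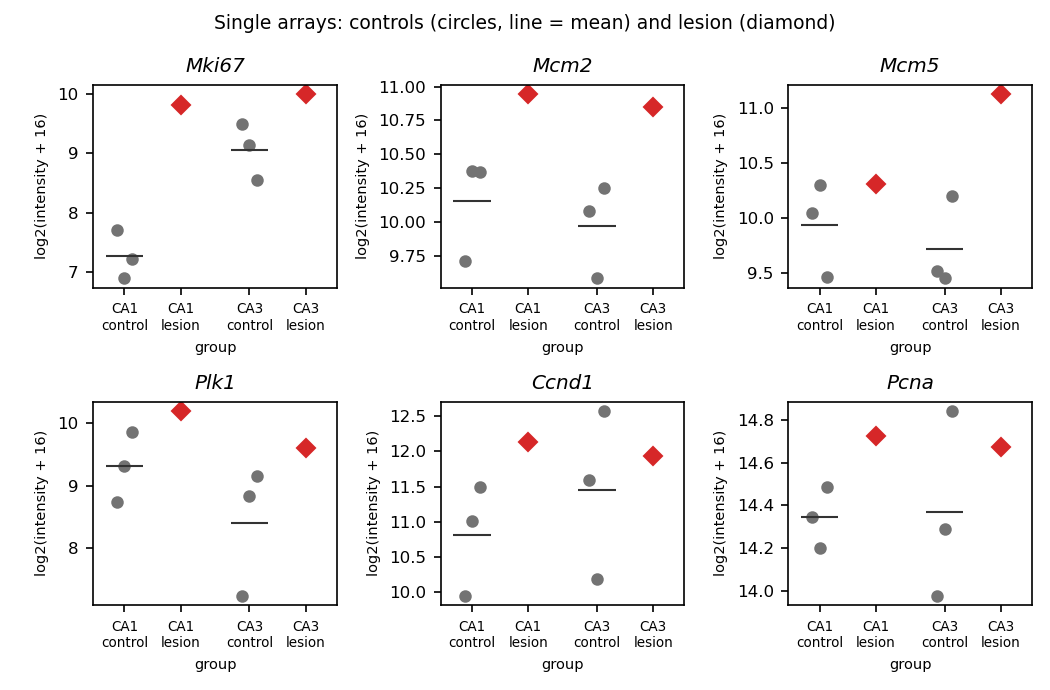
Log2(intensity + 16) of 6 genes on each array: grey circles are the 3 controls of a field (offset left to right by number 1 to 3, with a line at their mean) and red diamonds are the lone lesion arrays; the vertical axes do not start at 0. The lesion diamonds of Mki67, Mcm2, Mcm5 and Plk1 lie above all controls of their field, while in Ccnd1 and Pcna CA3 control 3 lies above the CA3 lesion array.

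Among 22 genes of the G2 and mitotic programme, the markers Mki67 and Top2a left aside, 17 had lesion estimates above 0, against 52.2% of all probe sets tested. The 22 include Ccna2 and Bub1b, which lay below the filter, while the share covers only probe sets past it. The test was run on 20 of the 22 and 0 passed the threshold, as for all probe sets (0%). Plk1, the Polo kinase that drives entry into mitosis, gave the smallest p of these. Plk1 was 8.75, 9.32 and 9.86 in the CA1 controls and 10.20 in the CA1 lesion array. Plk1 in CA3 was 7.24, 8.83 and 9.17 in the controls and 9.61 in the lesion array. Each lesion array of Plk1 lay above its controls, whose own range was wider than the step to the lesion array. The lesion difference was 1.04 ± 0.64 (SE; 95% interval -0.38 to 2.46; limma adjusted p = 0.810). Ube2c, the ubiquitin-conjugating enzyme that works with the anaphase-promoting complex, also lay above all controls in both fields, by less: 9.35 to 9.89 in the CA1 controls and 9.94 in the CA1 lesion array, and 9.49 to 9.76 in the CA3 controls and 10.08 in the CA3 lesion array.

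The kinase CDK1, encoded by Cdk1, had a lesion difference of 0.02, and its cyclin partners Ccnb1 and Ccnb2 had -0.22 and 0.84. Cdc20, the activator of the anaphase-promoting complex, had 0.25, and its 5 probe sets ran from -1.18 to 1.86. Aurka and Aurkb, the Aurora kinases of the spindle and of the passenger complex, had -0.01 and -0.23. Bub1, a spindle checkpoint kinase, had 0.60. Birc5, the survivin subunit of the passenger complex, had 1.29 with controls that ranged from 6.82 to 9.78. Birc5 lay at brightness percentile 43.6, with 9.34 in the CA1 and 9.78 in the CA3 lesion array. It too may have passed the filter only through these lesion arrays. Cdkn3, a phosphatase of CDKs, and Cdca3, a trigger of mitotic entry, had 0.96 and 0.30. The 8 spindle and cytokinesis genes ran from -0.31 to 0.51, with a median of 0.23. They are the mitotic kinesins Kif11, Kif20a and Kif2c, the microtubule binders Nusap1, Prc1 and Hmmr, the kinetochore gene Cenpf and Racgap1, a regulator of the cleavage furrow. Ccna2, cyclin A2, was below the filter and lay at 8.14 in the CA1 and 9.17 in the CA3 lesion array, above the controls of each field (5.24 to 7.36 and 7.65 to 9.0). Bub1b, a checkpoint protein related to Bub1 and the dimmest member, lay within its controls in the lesion array of each field.

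Over both fields, 0 of the 34 tested members passed the adjusted threshold for lesion against control, as did 0 of 18625 probe sets (0%), and the members' adjusted p ran from 0.771 to 1.00. At an unadjusted p below 0.05 there were 3 of 34 members, Mcm2, Mcm5 and Mki67, against 6.41% of all probe sets tested. Mki67 may have passed the brightness filter only through its lesion arrays, and so may Birc5. Estimates were above 0 for 23 of 34 members, Birc5 among them, against 52.2% of all. The median over the 38 measured members was 0.33, against 0.03 over all genes measured, and over the 34 tested members it was 0.31. With the filter at the 60th percentile, 13 members were left and their median was -0.03, so a median above 0 did not hold among the brighter members. In CA1 alone 0 members passed the adjusted threshold (0% of all), 2 of 34, Cenpf and Mki67, had an unadjusted p below 0.05 against 3.63%, and 21 had estimates above 0 against 50.7%. In CA3 alone 0 members passed (0% of all), 1 of 34, Mcm5, had an unadjusted p below 0.05 against 4.68%, and 25 had estimates above 0 against 54.5%. The CA1 and CA3 medians of the 38 measured members were 0.26 and 0.49. With control 3 of both fields left out, a choice made with the data in view, 182 of 18625 probe sets were called for the mean lesion difference. Among them were 0 members, which at so small a share of all probe sets does not set the list apart.

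Counted by position, 10 of 34 members had a CA1 lesion value above all 3 CA1 controls, against 21.2% of probe sets, and 6 had one below, against 24.8%. In CA3, 14 of 34 lay above all 3 controls, against 29.7%, and 3 lay below, against 24.8%. The 5 tested members above in both fields were Mcm2, Mcm5, Mki67, Plk1 and Ube2c, against 7.98% of probe sets. No tested member was below in both, against 8.03%. Among the untested members, Ccna2 lay above its controls in both fields and Tyms lay below them in both. Cenpf and Prc1 lay beyond their controls in opposite directions in the 2 fields, as did 9.49% of probe sets.

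The microglia and myelin markers moved on another scale in the same arrays, but not every glial list did so. The median lesion difference was 0.39 over 9 astrocyte genes and 0.42 over 6 oligodendrocyte precursor genes. Over the 38 cell cycle genes it was 0.33. The median over 15 microglia and macrophage genes stood at -1.63, -0.95 and 1.34 relative to each gene's mean in CA1 controls 1 to 3, and at 1.87 in the CA1 lesion array. In CA3 it stood at -1.78, -1.25 and 1.25 in the controls and at 1.40 in the lesion array. The corresponding medians of the 38 cell cycle genes were -0.02, 0.10 and 0.07 in the CA1 controls and 0.25 in the CA1 lesion array. In CA3 they were 0.09, -0.14 and -0.02 in the controls and 0.27 in the lesion array. Control 3 and the lesion array stood high for the microglia list in both fields, whereas for the median of the cell cycle list the 2 lesion arrays were the highest and control 3 lay with controls 1 and 2. Quantile normalization of the arrays gave cell cycle medians of 0.25 in both lesion arrays and -0.10 to 0.12 in the controls. Control 3 was then the highest control in both fields, at 0.065 in CA1 and, just above control 1 (0.114), at 0.116 in CA3. The order of the controls thus depended on the normalization.

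**Figure D3:**
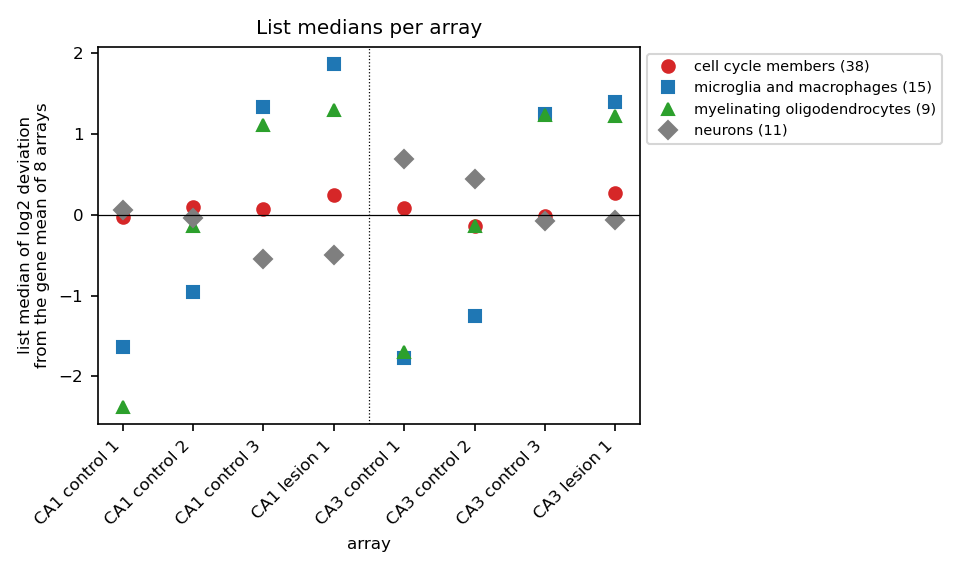
Median deviation of each gene list from the gene means, on the log2(intensity + 16) scale (vertical), on each of the 8 arrays (horizontal), with 1 point per list and array. The microglia and myelin points lie at -1.63 or lower in control 1 and at 1.11 or higher in control 3 and the lesion array of each field, while the cell cycle points stay between -0.14 and 0.27.

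As summed intensity, the 38 cell cycle genes came to 56851, 58390 and 65513 in CA1 controls 1, 2 and 3 and 69147 in the CA1 lesion array. In CA3 the sum was 55212, 57549 and 69969 in the controls and 73849 in the lesion array. By this sum, unlike by the median without quantile normalization, control 3 was the highest control in both fields, the order of the microglia list. The sum in CA3 control 3 exceeded that in the CA1 lesion array. The 15 microglia genes came to 9469 to 125909 in the CA1 controls and 180821 in the CA1 lesion array, and to 9482 to 106355 in the CA3 controls and 129035 in the CA3 lesion array. The sum over the cell cycle genes was highest in the lesion array of each field and is weighted to bright members such as Pcna. In CA1, Pcna alone was 22944 in control 3 and 27019 in the lesion array. That step exceeds the step in the sum, so without Pcna the CA1 lesion array was not the highest. In CA3, Pcna was lower in the lesion array (26065) than in control 3 (29333). The median lesion difference of the microglia list was 2.18 on the log2 scale, with 15 of 15 genes above 0, none past the threshold and 11 of 12 tested genes at an unadjusted p below 0.05. For 30 of the 34 tested cell cycle genes the upper end of the 95% interval lay below that value. The exceptions were Cdkn3 and Plk1, and also Birc5 and Mki67, which lay little above the filter. Field by field, with a single lesion array each, it was so for 24 of 34 in CA1, against a microglia median of 2.37, and for 18 of 34 in CA3, against 1.99. The interval held 0 for 31 of 34, and only for 11 did its upper end lie below 1, which is a doubling. The half-width of the intervals had a median of 1.07, so changes of a doubling in a single gene could not be resolved for most of them.

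**Figure D4:**
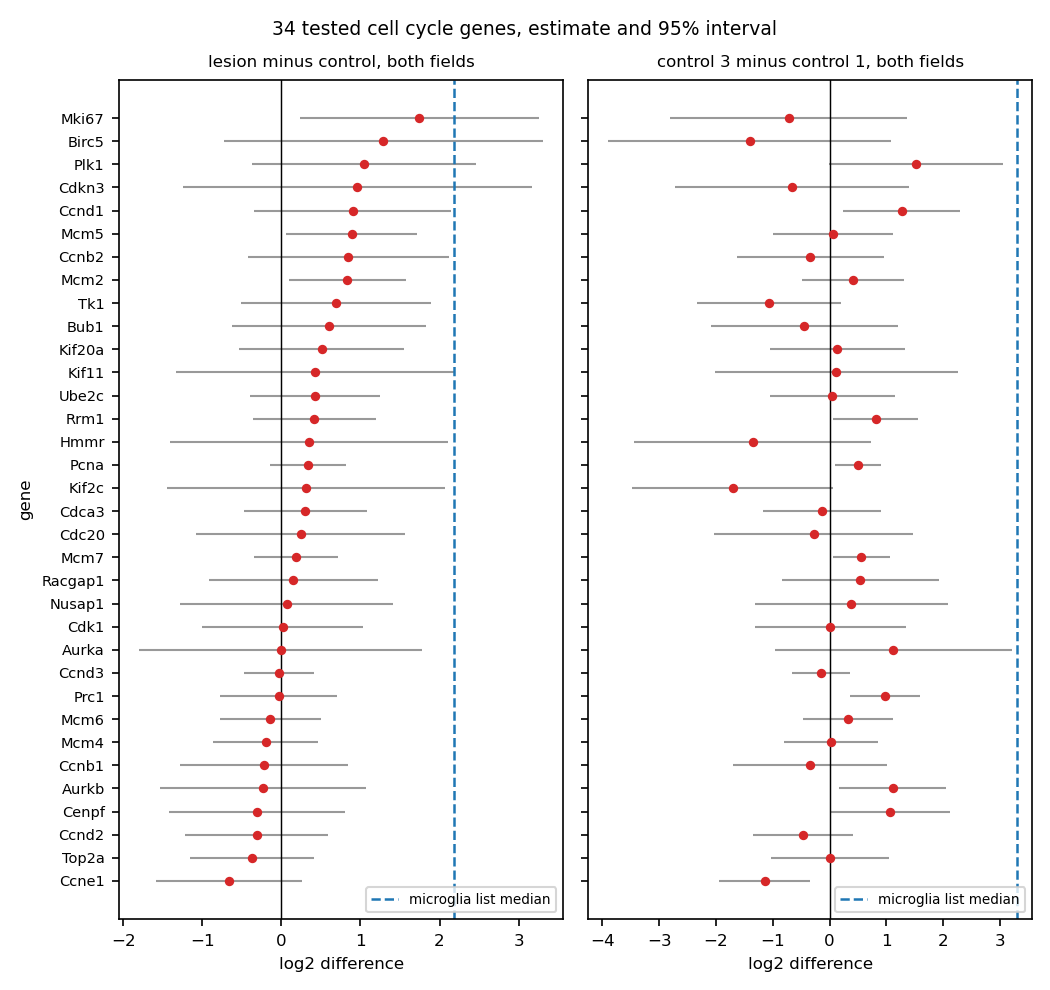
Log2 difference (horizontal) with its 95% interval for the 34 tested cell cycle genes (vertical), for lesion minus control (left) and control 3 minus control 1 (right), both over the 2 fields; the dashed line is the median of the microglia list in the same comparison. On the left, 30 of 34 intervals end below the dashed line at 2.18, and on the right all 34 end below the line at 3.30.

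The cell cycle genes did not vary together over the arrays. The median Pearson correlation of the 703 pairs among the 38 genes was 0.01 over the 8 arrays, and 51.2% of the pairs were above 0. Among the 15 microglia genes the median over 105 pairs was 0.88. These values describe 8 arrays that share fields, numbers and scaling, and no p is given. The cell cycle genes were also dimmer, at a median brightness percentile of 56.3 against 71.8 for the microglia genes. The part of brightness in the correlations was not tested. The spread between control arrays of a field, as a median SD, was 0.553 for the cell cycle genes and 0.583 for 1989 genes of like brightness, so the members varied about as much as those genes. A shared promoter layout did not go with high correlations. The 14 genes with CHR and CCAAT box, Mki67, Top2a and Cdk1 among them, had a median pair correlation of -0.02, and the 7 genes with an E2F site had 0.18.

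**Figure D5:**
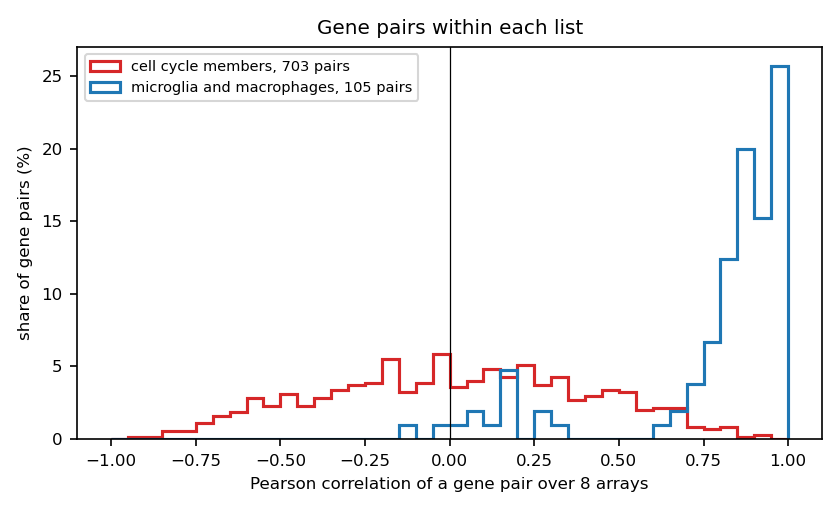
Distribution of Pearson correlations between gene pairs over the 8 arrays (horizontal) as a share of all pairs in percent (vertical), for 38 cell cycle genes and 15 microglia genes. The cell cycle pairs spread around 0, with a median of 0.01, and the microglia pairs sit near 1, with a median of 0.88.

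Between the fields, 0 of 34 members passed the adjusted threshold for CA3 against CA1 controls, against 0.526% of all probe sets. At an unadjusted p below 0.05 there were 3 of 34, Mcm6, Mcm7 and Mki67, against 8.31%. Mki67 was 3.46-fold higher in CA3, by 1.79 ± 0.68 on the log2 scale (SE over 3 and 3 control arrays; limma adjusted p = 0.520). Mki67 was the lone tested member whose CA3 controls all lay above the CA1 controls, against 6.06% of probe sets. The untested Ccna2 had the same layout, at 7.65 to 9.0 in the CA3 controls and 5.24 to 7.36 in the CA1 controls. Mcm6 and Mcm7, also helicase subunits, were the members whose CA3 controls all lay below, against 8.85%. Mcm6 was 10.66, 11.02 and 10.81 in the CA1 controls and 9.92, 9.96 and 10.42 in the CA3 controls, and its lesion values were 10.51 for CA1 and 10.14 for CA3. Mcm7 was 11.69, 11.99 and 12.20 in the CA1 controls and 11.02, 11.47 and 11.63 in the CA3 controls, and 12.01 and 11.70 in the lesion arrays. The differences were -0.73 ± 0.29 for Mcm6 and -0.59 ± 0.24 for Mcm7 (SE; limma adjusted p = 0.538 and 0.562). The lowest p-values after these were those of Cenpf (-0.98 ± 0.50, adjusted p = 0.646) and Ccnd2 (0.70 ± 0.40, adjusted p = 0.689). Estimates were above 0 for 20 of 34 members, against 45.5%, and the median over the 38 was 0.05. The direction in Mki67 was thus opposite to that in Mcm6 and Mcm7.

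Whether the lesion difference itself differed between the fields was tested as an interaction. None of 34 members passed (0% of all probe sets; adjusted p = 1.00 for the members), and 1, Cenpf, had an unadjusted p below 0.05, against 3.09%. Cenpf encodes a kinetochore-associated protein of G2 and mitosis. Cenpf was 9.88, 10.85 and 10.47 in the CA1 controls and 8.78 in the CA1 lesion array. In CA3 it was 8.37, 9.96 and 9.93 in the controls and 10.41 in the lesion array. The lesion array was below all controls in CA1 and above all in CA3, and the difference of the 2 lesion effects in Cenpf was 2.61 ± 1.0 (SE; 95% interval 0.39 to 4.83). Prc1, which bundles microtubules of the central spindle at cytokinesis, had the same layout. Prc1 was 10.55, 11.01 and 11.62 in the CA1 controls and 10.29 in the CA1 lesion array, and 10.64, 11.15 and 11.52 in the CA3 controls and 11.80 in the CA3 lesion array. The difference for Prc1 was 1.47 ± 0.67 (SE; 95% interval -0.01 to 2.95). Cdca3 was 9.75, 9.81 and 9.65 in the CA1 controls and 10.48 in the CA1 lesion array, and 9.62, 9.77 and 9.46 in the CA3 controls and 9.48 in the CA3 lesion array, so only the CA1 lesion array stood apart. Mcm5, Cdca3 and Top2a followed with 1.03, -0.88 and 0.86, and the 95% interval held 0 in each. For Mki67 the difference was -1.60 with a 95% interval of -4.62 to 1.43, so its larger estimate in CA1 was not distinguished from that in CA3.

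Control 3 against control 1 was fitted with the array number beside the group, unlike the other comparisons. Of the 6 comparisons as fitted, it had the most probe sets past the adjusted threshold, 4.2% over both fields. The ranking is thus between unlike models. With the array number as a block, the mean lesion difference also had probe sets past the threshold, as given below. With variances that do not follow the intensity, 0 probe sets passed for control 3 against control 1, glial genes included. The median of the microglia list in this comparison was 3.30, and 11 of its 12 tested genes passed. All 8 tested myelin genes passed as well. Among the 34 cell cycle genes 0 passed, and the median over the 38 was 0.02, with 21 higher and 17 lower. Estimates were above 0 for 20 of 34, against 49.6%. At an unadjusted p below 0.05 there were 8 of 34, against 17.2%: Prc1, Pcna, Ccnd1, Aurkb, Mcm7, Rrm1 and Cenpf with estimates above 0, and Ccne1 below. All 34 upper ends of the 95% intervals lay below the microglia median of 3.30.

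The smallest p among the members belonged to Prc1, at 0.97 ± 0.28 (SE; 95% interval 0.37 to 1.58; limma adjusted p = 0.0817). Ccne1, cyclin E1, was 11.30, 10.85 and 9.94 in controls 1 to 3 of CA1 and 11.71, 10.51 and 10.78 in CA3 controls 1 to 3. Its lesion values were 10.43 for CA1 and 9.94 for CA3. Its difference was -1.14 ± 0.36 (SE; limma adjusted p = 0.123), lower in control 3 in both fields. For Pcna the difference was 0.50 ± 0.18 (adjusted p = 0.177), for Ccnd1 1.27 ± 0.47 (adjusted p = 0.183) and for Aurkb 1.11 ± 0.43 (adjusted p = 0.206). Aurkb was 9.13, 10.63 and 10.43 in the CA1 controls and 9.80 in the CA1 lesion array, and 9.30, 11.58 and 10.22 in the CA3 controls and 10.16 in the CA3 lesion array. In each field the highest Aurkb value was that of control 2, not of control 3. Whether a member passed turned on single arrays. Pcna passed without CA1 control 1 (0.80, adjusted p = 0.00356). Ccnd1 passed without CA3 control 1 (2.02, adjusted p = 0.000963), without CA1 control 2 (1.27, adjusted p = 0.00958) and without CA3 control 2 (1.27, adjusted p = 0.00792). Aurka also passed without CA3 control 1 (3.17, adjusted p = 0.0415), and no member passed with any other array left out.

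By position, 11 of 34 members were higher in control 3 than in control 1 in both fields, against 30.2% of probe sets, and 9 were lower in both, against 31%. Mki67 was among the 9. Control 3 and the lesion array both lay above controls 1 and 2 in both fields, the order shown by the microglia list, for 4 of 34 members, Ccnd1, Mcm7, Pcna and Plk1, against 9.11% of probe sets. Against controls 1, 2 and 3 singly, the median lesion difference over the 38 genes was 0.19, 0.024 and 0.29 in CA1 and 0.34, 0.34 and 0.46 in CA3, so in CA1 it was near 0 against control 2. The microglia median was 0.51 and 0.21 above control 3, and 3.39 and 2.97 above control 1.

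Genes of the same pathways that are not members were read from 4 lists. Of 32 other G1/S and replication genes, 25 were tested and 0 passed in any of the 6 comparisons. Their median lesion difference was 0.02, with 18 higher and 14 lower. An unadjusted p below 0.05 was found for 2 of 25, against 6.41% of all probe sets tested. The smallest p belonged to Orc6, a subunit of the origin recognition complex, at -1.62 ± 0.42 (SE; limma adjusted p = 0.673). Of 30 other G2/M and mitosis genes, 23 were tested and 0 passed in any comparison. Their median lesion difference was 0.10, with 19 higher and 11 lower. None of the 23 had an unadjusted p below 0.05 for the mean lesion difference, against 6.41% of all probe sets tested. Counts this near the share over all probe sets do not set these 2 lists apart. Median pair correlations were -0.03 and -0.04 in these lists, so they were as loosely tied over the arrays as the members.

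CDK inhibitors, pocket proteins and antiproliferative genes, which hold cells out of the cycle, numbered 17, of which 15 were tested. Their median lesion difference was 0.24, with 13 higher and 4 lower. Of the 15 tested, 0 passed (0% of all probe sets) and 1 had an unadjusted p below 0.05, against 6.41%. Between control 3 and control 1, where 4.2% of all probe sets tested passed, 2 of these 15 did. Gadd45b rose by 1.86 ± 0.45 and Gadd45g by 1.04 ± 0.25 (SE; limma adjusted p = 0.0449 and 0.0471). Both are stress-induced genes whose products restrain the cycle. Of 15 glial mitogens and receptors, 13 were tested and 0 passed for lesion against control (0% of all probe sets). An unadjusted p below 0.05 was found for 3 of the 13, against 6.41%. Csf1, the growth factor of microglia, had the smallest p there, at 0.79 ± 0.22 (SE; limma adjusted p = 0.692). Between control 3 and control 1, its receptor Csf1r rose by 2.40 ± 0.26, Igf1, a growth factor, by 2.27 ± 0.28 and Pdgfra, the receptor of oligodendrocyte precursors, by 1.89 ± 0.41 (SE; limma adjusted p = 0.000406, 0.00118 and 0.0295). Il34, the other ligand of the Csf1 receptor, fell by 0.94 ± 0.22 (adjusted p = 0.0392). Csf1r also stands in the microglia list and Pdgfra in the precursor list.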

How the data were processed

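RNA of 8 pools of 15 rat slice cultures was measured on 8 arrays. The deposited values are linear signal intensities, 1 per probe set and array. All arrays had a 2% trimmed mean near 2501, which points to a common scaling by the authors in the deposited table. The sources used here give neither the software nor the probe summary, and no detection calls were used. Intensities were converted to log2(value + 16), which understates folds at low intensity. From 31099 probe sets, 57 controls and those below the 40th percentile of mean log2 were left out, and 18625 were tested with limma 3.58.1 in R 4.3.3 (1 coefficient per group, variances following the mean, 4 residual degrees of freedom, 2 with the array number as a term). P-values were adjusted by Benjamini-Hochberg over all 18625, with a threshold of 0.05. Of the probe sets, 20832 have 1 symbol, 436 several and 9831 none. The members and lists were chosen with earlier results of these data known, so no p-value is given for a list.

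Per-array values and statistics are given for Mki67, Top2a, Pcna and Ccnd1 and for the 5 members with the smallest p in each of 4 comparisons (between fields, lesion, difference of lesion effects, and control 3 against control 1). The values of other members were chosen after they were seen. From other lists at most 3 genes per comparison were named by their p, except Il34, added because it passed the threshold. The number of arrays limits the precision. Alternatives were other normalization, pseudocounts, filters, variance models, probe set choices, left-out arrays and the array number as a block.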

Additional observations from a re-analysis of the deposited data

Results flagged for a closer look

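In 3 genes the lesion arrays of CA1 and CA3 both lay beyond all controls of their field, in opposite directions. The CA3 lesion difference minus the CA1 lesion difference was 2.61 on the log2 scale in Cenpf and 1.47 in Prc1, where the CA1 lesion array was low and the CA3 lesion array high. In Mcm3 it was -2.12, with the CA1 lesion array high and the CA3 lesion array low. The interaction did not pass the threshold for Cenpf or Prc1 (limma adjusted p = 1.00 for both), and it was not tested for Mcm3, which lay below the brightness filter. Of all probe sets tested, 9.49% showed such an opposite position, so it was not rare, and each direction rests on 1 lesion array per field.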

How the results depend on the processing

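Of the 34 tested members, 0 passed the threshold in any of the 6 comparisons under every alternative run, except for control 3 against control 1 with single arrays left out, where 0 to 2 passed. Counts of all probe sets past the threshold moved. With variances not following the intensity they were 0 for CA3 against CA1 and 0 for control 3 against control 1. With a gene's probe sets averaged they were 56 and 474. For the CA3 lesion they were 5 with quantile normalization, 5 with a pseudocount of 1 and 5 without probe sets of possible cross-hybridisation. With single arrays left out they ran from 24 to 104 for CA3 against CA1, from 0 to 1 for the mean lesion difference and from 107 to 1340 for control 3 against control 1. Without a lesion array, the mean lesion difference is that of the other field alone. Leaving out numbered controls of both fields was chosen after the data were seen. Without number 1, 5 passed for CA3 against CA1. Without number 3, 182 passed for the mean lesion difference, 3 in CA1 and 6 in CA3.

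The number of the labels as a replicate block gave 358 probe sets for CA3 against CA1, 697 for the mean lesion difference, 258 in CA1 and 310 in CA3, with 0 members in each and a member median of 0.34 in CA1. In that fit the mean lesion difference was 1.91 for Plk1 (95% interval 0.38 to 3.44; limma adjusted p = 0.183), -1.32 for Ccne1 (-2.11 to -0.52; adjusted p = 0.0764) and 1.31 for Mki67 (-0.77 to 3.39; adjusted p = 0.556). Its sign turned in 10 of 34 tested members, Aurka, Aurkb, Cdc20, Cdkn3, Cenpf, Hmmr, Kif2c, Mcm6, Prc1 and Tk1, and in 4 of 34 in each field alone. Same-numbered CA1 and CA3 controls deviated together at correlations of 0.16, 0.06 and 0.31 for numbers 1 to 3, so the pairing was not established, though each sample correlated best with its own number.

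The median over the tested members was 0.21 with quantile normalization for CA3 against CA1, 0.34 in CA1 lesion, 0.29 in CA3 lesion and -0.078 for the difference of lesion effects. With the filter at the 60th percentile it was -0.029 for the mean lesion difference, -0.15 in CA1, 0.30 in CA3 and 0.41 for control 3 against control 1. With probe sets averaged it was 0.42 for the mean lesion difference, 0.36 in CA1 and 0.086 for the difference of lesion effects. With single arrays left out it ran from -0.13 to 0.041 for CA3 against CA1 and from 0.19 to 0.49 for the mean lesion difference. It ran from 0.065 to 0.28 for the difference of lesion effects and from -0.046 to 0.22 for control 3 against control 1. The range for the mean lesion difference includes fits without a lesion array, which give the other field alone. Its ends match the medians of the tested members in CA1 alone, 0.19, and in CA3 alone, 0.49. The Top2a values below without a lesion array are likewise those of a single field. The causes were not tested. Of 577 recomputed values of the genes named by the rule, in the comparisons they were named for, 570 kept their direction and side of the threshold, 4 passed it and 3 turned: Top2a for the mean lesion difference (0.50 with its probe sets averaged, and from -0.80 without the CA3 lesion array to 0.066 without the CA1 lesion array) and Ccnd1 in CA3 (from -0.15 without CA3 control 2 to 1.05 without CA3 control 3).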
